A study of Bos taurus with 8 samples.

Results

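The 8 genes described here, S100A4, S100A6, S100A8, S100A9, S100A11, S100A12, S100B and HMGB1, encode ligands of RAGE, the receptor for advanced glycation end products. They were chosen by name, as every noncontrol array probe whose gene name or description symbol is one of these 8 symbols. This gave 23 of the 43653 probes and 8 of the 16697 gene symbols on the array. The endometrium, the lining of the uterus, was biopsied 7 days after standing estrus, from the horn next to the ovary with the corpus luteum. On day 1 both horns had been given 25 mL each, which held 5 mM methylglyoxal (MGO) for 4 cows and 0 mM for 4 different cows. Each biopsy was hybridised to its own one-colour Agilent array, and no breed or age is given in the labels.

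RAGE is a cell surface receptor of the immunoglobulin family that was named for binding sugar-modified proteins, and methylglyoxal is a reactive dicarbonyl that makes such modifications on arginine and lysine. S100 proteins are small calcium-binding proteins that usually form dimers, act inside the cell and, once released, can bind RAGE or Toll-like receptors. HMGB1 is an abundant chromatin protein that bends DNA in the nucleus and acts as a danger signal outside the cell. S100A8, S100A9 and S100A12, the calgranulins, are best known from neutrophils and monocytes, in the cow as in humans.

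The array measures each gene with probes of 60 bases, and a few are shown here to let a reader see what such a signal rests on. The S100A9 probe shown is the one its reported levels come from. Those shown for S100A12, S100B and HMGB1 are further tested probes of these genes, and their levels below come from other probes unless stated. Coordinates are on HGSC Btau_3.1, the build of the array, and sequences are those of the scanner files. These S100A9 and S100A12 probes, at chr3:18511639-18511698 (minus strand) and chr3:18500122-18500181, stand for the calgranulin genes, and the capitals mark the longest run that they share, 5 bases.
S100A9: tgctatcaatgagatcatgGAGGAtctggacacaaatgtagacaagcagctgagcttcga
S100A12: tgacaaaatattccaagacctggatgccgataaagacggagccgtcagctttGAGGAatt
The S100B probe at chr1:149242997-149243056 (minus strand) ends with a stop triplet, in capitals.
S100B: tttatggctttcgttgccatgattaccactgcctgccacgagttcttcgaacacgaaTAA
The HMGB1 probes that start at 30142742 and 30142791 on chromosome 12 cover neighbouring stretches of the transcript, and the capitals mark the 11 bases where they meet. The second is mapped from 30142791 to 30143898, a span longer than the probe.
HMGB1, start 30142742: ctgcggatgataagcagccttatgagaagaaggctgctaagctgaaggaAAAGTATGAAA
HMGB1, start 30142791: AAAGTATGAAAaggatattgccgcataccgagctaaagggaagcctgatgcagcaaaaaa
Between the calgranulin genes, the longest shared run of any tested probes was 7 bases for S100A8 and S100A12 and 6 bases for S100A8 and S100A9. Over all 151 pairs of tested probes of different members it was 9 bases.

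Levels are given as log2 signal after subtraction of the log2 75th percentile of that array's signals. A difference is the 5 mM mean less the 0 mM mean, and replicates are numbered as in the labels. Levels of different probes cannot be set against each other. The 75th percentile lay between 1032 and 1456 intensity units and 68.3% to 73.3% of spots were well above background, with no saturated spot. Of the 23 member probes, 19 cleared the background mark of the scanner software (well above background) on 4 or more arrays and were tested, with every member gene represented. The other 4, probes of S100A4, S100A6, S100A9 and HMGB1, cleared it on 0 arrays. Of the tested 19, 18 were well above background on all 8 arrays, and the S100A9 probe was so on 7. Where a gene had several tested probes, the probe with the highest mean over the arrays was taken as its main probe. The biopsies differed in their cell type markers, and 5 mM replicate 1 stood apart, with a mean of the 15 tested epithelium markers of -3.16, against 0.27 to 0.81 on the other 7 arrays. The 14 smooth muscle markers averaged 2.50, 1.56 and 1.30 on 5 mM replicates 1 and 3 and 0 mM replicate 1. On the rest they averaged -1.53 to -0.84. In a whole biopsy, fewer cells of a type and less RNA per cell cannot be told apart. The array number limits the precision of every comparison.

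The comparison asked whether intrauterine methylglyoxal altered the transcript levels of these RAGE ligands by day 7. No member passed the test. In the limma fit over all 31108 tested probes with Benjamini-Hochberg adjustment, 0 of 8 member genes had an adjusted p under 0.05, where the share over all 12810 tested genes was 0%. At an unadjusted p under 0.05 the count was 0 of 8 members, against a background of 1.93% of genes (247 of 12810). By probe it was 0 of 19, against 1.91% of probes, and the lowest unadjusted p among them was 0.340, for S100A11. The groups overlapped for all 8 main probes and all 19 tested ones, where 1.65% of all genes and 1.54% of all probes had groups without overlap. The median difference of the members was 0.076, against 0.011 over all tested genes, and 5 were above 0 and 3 below. The 95% intervals were narrow for S100A6, S100A11 and HMGB1, and wide for S100B and the calgranulins, as the plot of probe differences shows.

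**Figure D1:**
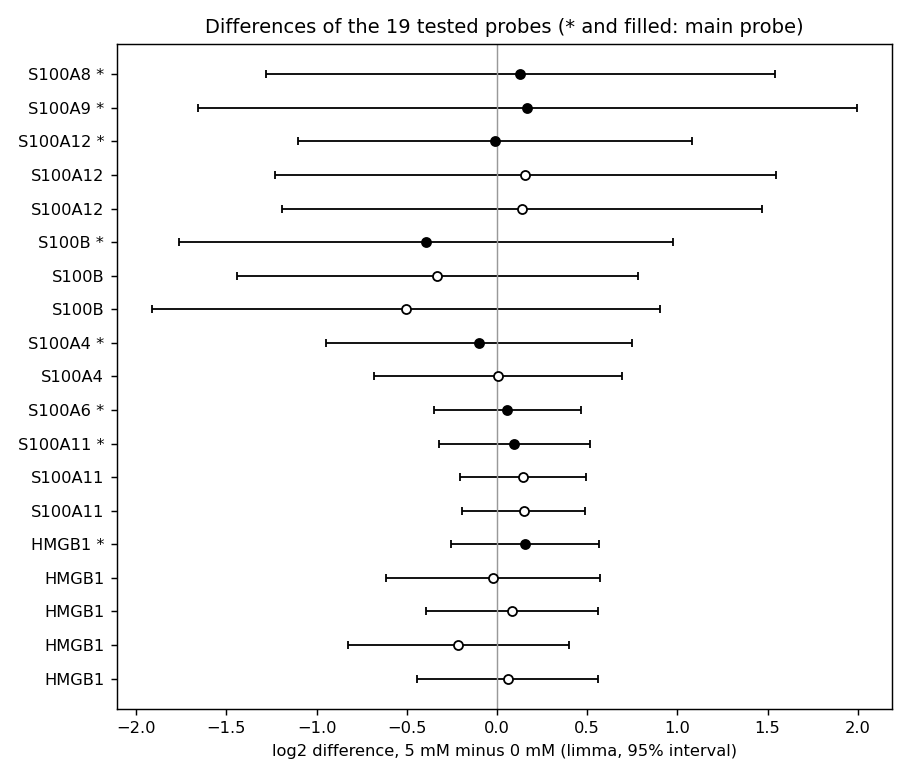
Log2 difference, 5 mM minus 0 mM, of each of the 19 tested probes by gene, with its 95% interval from limma (4 cows a group). Filled points with an asterisk are the main probes, open points other probes of the same gene. Every interval includes 0, and the widest is that of S100A9, from -1.659 to 1.997.

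Among the calgranulins, S100A8 encodes the partner of S100A9 in calprotectin, a zinc- and manganese-binding complex that limits bacterial growth. S100A8 was at -2.87, -3.32, -2.85 and -2.38 in cows given 5 mM and at -4.64, -1.51, -2.44 and -3.35 in cows given 0 mM, replicates 1 to 4. All 4 values of the 5 mM group lay inside the range of the 0 mM group, whose replicates 1 and 2 were the lowest and the highest of the 8. The means were -2.85 ± 0.38 with 5 mM and -2.98 ± 1.34 with 0 mM (SD, n = 4 each), a difference of 0.13 ± 0.61 (SE, adjusted p = 0.969). By an exact two-sided permutation test over the 70 arrangements of the cows the p was 0.8286, and the smallest such a test can give is 0.0286.

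S100A9, the other subunit of calprotectin, was at -4.85, -5.89, -5.74 and -5.49 in cows given 5 mM and at -7.99, -4.37, -4.26 and -6.02 in cows given 0 mM. The lowest value, on 0 mM replicate 1, was not well above background, so that its level there is only a bound. Again the 5 mM values lay inside the 0 mM range, and the 0 mM group held both extremes. The difference was 0.17 ± 0.79 (SE, limma adjusted p = 0.969), with a 95% interval from -1.659 to 1.997.

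S100A12, also named EN-RAGE after its binding to the receptor, was at -1.38, -1.73, -1.57 and -1.28 in cows given 5 mM and at -2.61, -0.14, -1.29 and -1.87 in cows given 0 mM. The order was that of S100A8 but for neighbours, with 0 mM replicate 1 lowest and 0 mM replicate 2 highest. The difference was -0.0097 ± 0.47 (SE, limma adjusted p = 0.997). Its other tested probes differed by 0.16 and 0.14, so the sign of this small difference depends on the probe. Without 0 mM replicate 1 the differences were -0.42 for S100A8, -0.61 for S100A9 and -0.39 for S100A12, and without 0 mM replicate 2 they were 0.62, 0.60 and 0.44. S100A8 was also below 0 without 5 mM replicate 4 (-0.028), and S100A9 without 5 mM replicate 1 (-0.046).

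The calgranulins varied widely between cows, with 8.76-fold between the lowest and highest cow for S100A8, 13.3-fold for S100A9 and 5.55-fold for the main S100A12 probe, the S100A9 value resting on the dim array. On the log2 scale these ranges were larger than those of 89.1%, 92.3% and 83.4% of tested genes. The spread lay mostly in the 0 mM group. The SD of the 0 mM group was 3.5 times that of the 5 mM group for S100A8, 3.80 times for S100A9 and 5.27 times for S100A12, while the median of this ratio over 12670 genes was 0.699. Of those genes, 98.4%, 98.8% and 99.6% had a smaller ratio than S100A8, S100A9 and S100A12. Leaving out 1 cow moved the ratio by over 1.5 times for S100A9, to 8.74 without 5 mM replicate 1 and 2.14 without 0 mM replicate 1, and for S100A12, to 3.35 without 0 mM replicate 2. For S100A8 it stayed between 2.41 and 5.05. These shares and ratios describe 4 cows a group, and a difference in spread was not tested. For 5 of the 8 members, S100A4, S100A8, S100A9, S100A11 and S100A12, all 5 mM values lay within the 0 mM range, as for 12.04% of genes.

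**Figure D2:**
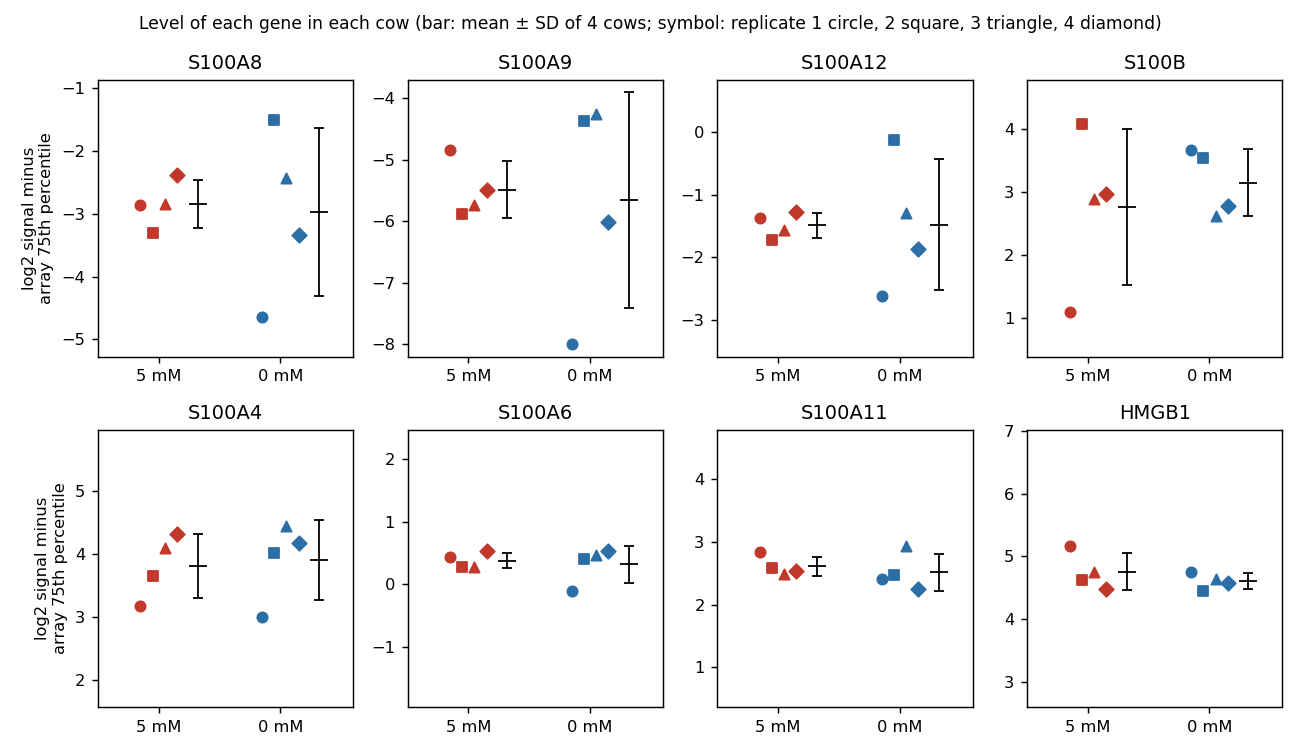
Log2 signal minus the array's 75th percentile (vertical axes) of the main probe of each gene, with 1 symbol per cow, 5 mM at the left of each panel and 0 mM at the right, and the mean ± SD of 4 cows beside each group. The narrower panels share 1 axis span, so that the wide 0 mM spread of S100A8, S100A9 and S100A12 can be seen beside the narrow spread of S100A6, S100A11 and HMGB1.

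The levels of the calgranulin genes also varied together from cow to cow. Over the 8 arrays the levels of S100A8 and S100A12 had a Pearson's r of 0.969 (exact permutation p = 0.000868, adjusted p = 0.0243 over the 28 pairs of members) and a Spearman's rho of 0.976 (exact permutation p = 0.000397, adjusted p = 0.0111). Without 0 mM replicates 1 and 2, the arrays farthest from the S100A8 median, r was 0.943. S100A8 and S100A9 had an r of 0.907 (exact permutation p = 0.00312, adjusted p = 0.0437) and a rho of 0.833 (exact permutation p = 0.0154, adjusted p = 0.144), with an r of 0.676 without the same arrays. For S100A9 and S100A12 r was 0.857 and rho 0.881 (exact permutation p = 0.0120 and 0.00724, adjusted p = 0.112 and 0.101), with 0.894 without 0 mM replicates 1 and 3. Of the 28 pairs, only S100A8 with S100A12 and S100A8 with S100A9 had an adjusted p under 0.05 for Pearson's r, and only S100A8 with S100A12 did for rho. All 3 S100A12 probes followed S100A8, with r of 0.969, 0.962 and 0.9503. Those at 0.969 and 0.962 share 29 bases in a row, so they are not separate readings. These correlations share each array's RNA and scaling, and slides held 2 or 3 arrays each, too few for a value within a slide. With 7 cows, the adjusted p for S100A8 and S100A12 exceeded 0.05 on leaving out 5 mM replicate 2 or 3 or 0 mM replicate 3 or 4, while r stayed between 0.961 and 0.987. For S100A8 and S100A9 it exceeded 0.05 on leaving out 5 mM replicate 2 or 3 or any 0 mM cow, with r at 0.760 without 0 mM replicate 1 and, with normexp background correction, 0.803 (adjusted p = 0.160). For S100A9 and S100A12 the adjusted p fell below 0.05 only without 0 mM replicate 2 (r = 0.942, adjusted p = 0.0361). The correlations between members, the SD ratios and the alternatives for both were chosen after the data were seen.

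**Figure D3:**
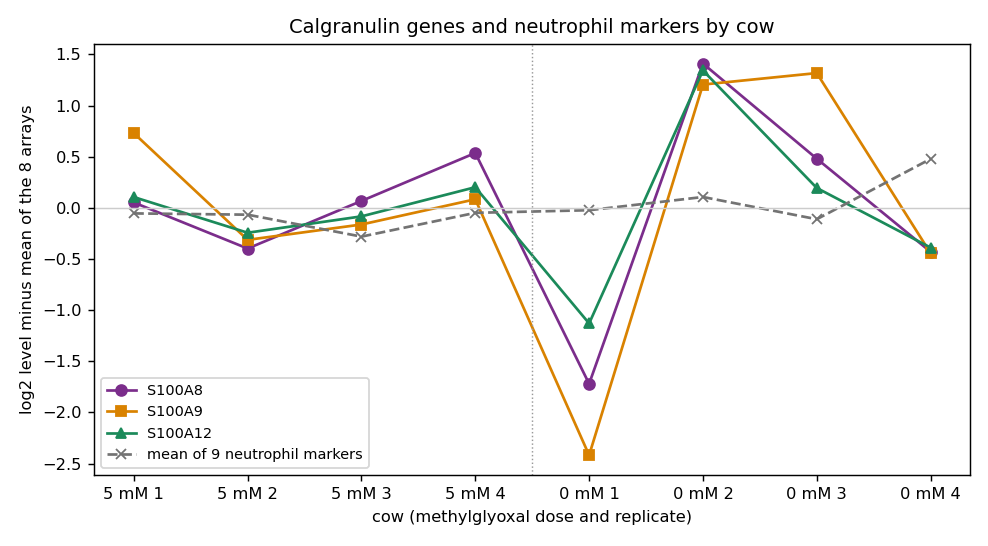
Log2 level of S100A8, S100A9 and S100A12, each minus its mean over the 8 arrays, by cow, with the mean of the 9 tested neutrophil markers on the same scale (dashed). The calgranulin lines are lowest on 0 mM replicate 1 and high on 0 mM replicate 2, while the neutrophil mean lies between -0.28 and 0.48 throughout.

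Markers of neutrophils, in which calgranulins are abundant, were set beside these levels. Of 18 neutrophil markers 9 were tested, 3 with a difference above 0 and 6 below, none at an unadjusted p under 0.05. Their mean lay between -0.28 and -0.049 with 5 mM and between -0.11 and 0.48 with 0 mM, highest on 0 mM replicate 4, where S100A8 was the second lowest of the 8. On 0 mM replicates 1 and 2, the extremes of S100A8, the neutrophil mean was -0.023 and 0.11. Of the neutrophil list, the chemokine receptor genes CXCR1 and CXCR2 were well above background on 0 arrays. So were CD177 and the cathelicidin genes CATHL1 and CATHL4. The macrophage and dendritic cell mean, from 13 of 16 markers, was between -0.82 and 0.19 with 5 mM and between -0.70 and 0.71 with 0 mM, where it was -0.70 on replicate 1 and 0.40 on replicate 2. The part of neutrophils, monocytes and macrophages in the calgranulin levels was not tested. The 3 tested haemoglobin and red cell genes were highest on 5 mM replicates 2 and 4, at 1.501 and 1.57, and at -0.056 and -0.072 on 0 mM replicates 1 and 2.

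Of the genes with symbols, those most like the calgranulins in their pattern over the 8 arrays were ranked by Pearson's r among 12422 others. For S100A8 the first was S100A12 (0.969), followed by KANTR (0.927) and WBP11 (0.921), a splicing factor gene. For S100A12 they were S100A8, ZFP36 (0.968), which encodes an mRNA-destabilising protein of the immediate early response, and ATAD1 (0.945). For S100A9 they were TOMM40L (0.969), CEP43 (0.944) and PCDHB7 (0.928), and no calgranulin was among the 3. With 8 arrays and so many genes such values are a description, and nothing is said by them of function.

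S100B, a dimer-forming S100 protein known from glia and Schwann cells, had the largest difference among the members. Its main probe was at 1.09, 4.08, 2.89 and 2.96 in cows given 5 mM and at 3.66, 3.54, 2.62 and 2.77 in cows given 0 mM. The 5 mM group held both the lowest and the highest cow, and 5 mM replicate 1 stood well below the other 7. The means were 2.76 ± 1.24 with 5 mM and 3.15 ± 0.53 with 0 mM (SD, n = 4 each), a difference of -0.39 ± 0.59 (SE, adjusted p = 0.917, exact permutation p = 0.657). The probe that ends with the stop triplet differed by -0.50, and the third by -0.33. Without 5 mM replicate 1 the difference was 0.16, so that its sign rests on that cow.

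That array is also the one with the low epithelium markers. On it S100B was lowest, and the mean of the 8 tested Schwann cell and nerve markers of 12 was lowest as well, at -0.91. Over the groups that mean ranged from -0.91 to 0.54 with 5 mM and from 0.12 to 0.62 with 0 mM. SOX10, which defines the Schwann cell lineage, was well above background on 1 array. S100B was highest on 5 mM replicate 2, where the Schwann cell mean was -0.25, and the epithelium mean of the 7 other arrays spanned 0.27 to 0.81 while S100B there spanned 2.62 to 4.08. The part of these cell types in the S100B level was not tested. The genes most like S100B in pattern were STK31 (r = 0.992), MTERF2 (0.991) and DPAGT1 (0.988), with 5 mM replicate 1 the lowest array for each.

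**Figure D4:**
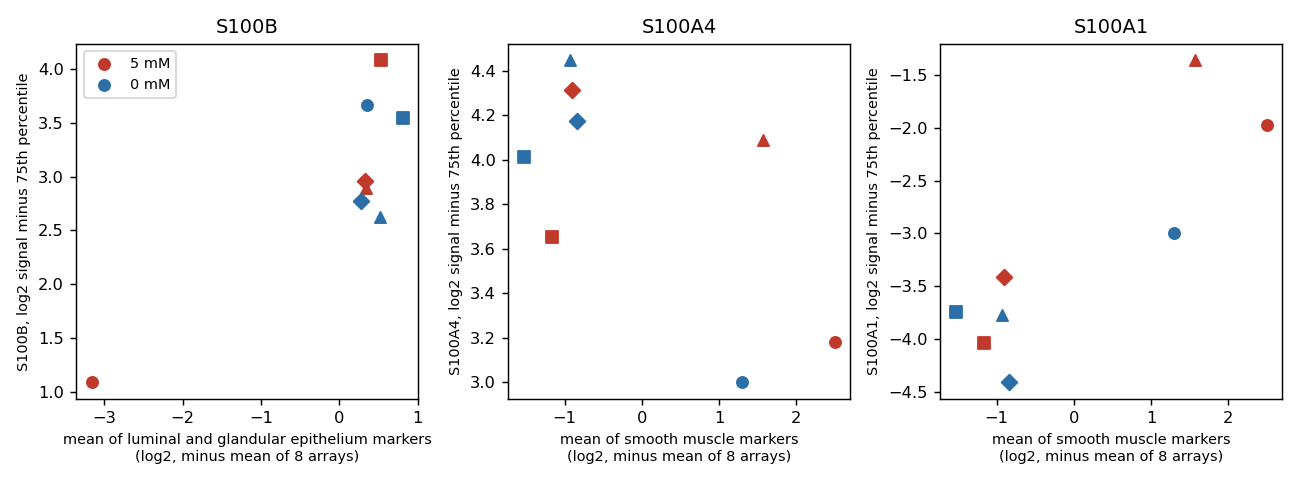
Level of S100B, S100A4 and S100A1 (log2 signal minus the 75th percentile, vertical axes) against the mean of epithelium or smooth muscle markers (log2, minus the mean of the 8 arrays, horizontal axes), 1 point per cow, 5 mM in red and 0 mM in blue. Replicates 1 to 4 are circle, square, triangle and diamond. The lowest S100B point is 5 mM replicate 1, with epithelium markers at -3.16, and the 3 highest S100A1 points are the 3 arrays with smooth muscle means of 1.30 or more.

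S100A4, known from fibroblasts, motile cells and leukocytes, was at 3.18, 3.65, 4.09 and 4.31 in cows given 5 mM and at 2.999, 4.01, 4.45 and 4.17 in cows given 0 mM. The lowest value of each group was replicate 1, and these were the arrays of slide 1. The difference was -0.10 ± 0.37 (SE, limma adjusted p = 0.961), with an exact permutation p of 0.8. Leaving out 5 mM replicate 1 turned it to 0.11, and leaving out 0 mM replicate 3 to 0.080. Smooth muscle markers were high on both slide 1 arrays, so slide and muscle content cannot be told apart on slide 1. They were also high on 5 mM replicate 3, on slide 3, where S100A4 was at 4.09. The second tested probe overlaps the first by 42 bases, and its values on 5 mM replicate 2 and 0 mM replicates 2 and 3 were dropped for a scanner outlier mark, so that 5 arrays gave its difference of 0.0034. The genes most like S100A4 were RBM48 (r = 0.963), ELMO1 (0.952) and COP1 (0.9499).

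S100A6, calcyclin, binds the ubiquitin ligase partner CACYBP and annexins. It was at 0.43, 0.27, 0.28 and 0.53 in cows given 5 mM and at -0.11, 0.40, 0.47 and 0.53 in cows given 0 mM. All arrays but 0 mM replicate 1 lay within 0.27 to 0.53. The difference was 0.057 ± 0.18 (SE, limma adjusted p = 0.954), and the 95% interval ran from -0.35 to 0.46, or 0.784-fold to 1.38-fold. Without 0 mM replicate 1 the difference was -0.088. A further probe whose description gives the S100A6 protein, but not the symbol, is outside the rule and differed by 0.32 ± 0.29 (SE). The genes most like S100A6 were TBX3 (r = 0.958), SRRD (0.956) and JMY (0.946).

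S100A11, calgizzarin, an annexin A1 partner in epithelium, was at 2.83, 2.57, 2.49 and 2.53 in cows given 5 mM and at 2.40, 2.47, 2.93 and 2.24 in cows given 0 mM. Its 0 mM group spanned the 5 mM group. The 3 tested probes differed by 0.095, 0.14 and 0.15, all above 0, and 2 of them share 53 bases. Dropping 5 mM replicate 1 brought the main probe's difference to 0.021. Dropping 0 mM replicate 3 or 4 brought it to 0.235 or 0.0050. Their unadjusted p were 0.614, 0.370 and 0.340, and the adjusted p was 0.913 or more in the limma fit. The 95% interval of the main probe, from -0.32 to 0.51, equals 0.799-fold to 1.43-fold. SEPTIN2 (r = 0.916), PARP11 (0.907) and BCHE (0.906) were the genes most like S100A11.

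HMGB1 was read by 5 tested probes. Its main probe, at chr12:30144368-30144427, was at 5.17, 4.63, 4.75 and 4.49 in cows given 5 mM and at 4.75, 4.45, 4.64 and 4.58 in cows given 0 mM. The highest array was 5 mM replicate 1, and the other 7 lay within 4.45 to 4.75. The means were 4.76 ± 0.29 with 5 mM and 4.60 ± 0.13 with 0 mM (SD, n = 4 each), a difference of 0.16 ± 0.18 (SE, adjusted p = 0.913). The 95% interval equals 0.839-fold to 1.48-fold.

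The HMGB1 probes did not share a sign. The probe at start 30142791 differed by 0.085 and its neighbour at start 30142742 by -0.21, while the remaining ones gave 0.059 and -0.020. The probe at -0.020 shares 44 bases in a row with the main probe. The RefSeq table lists an HMGB1 pseudogene in the cow, and whether these probes also read near-identical copies was not tested. Without 5 mM replicate 1 the difference of the main probe was 0.018. The genes most like it were NKAPL (r = 0.986), the thyroid hormone receptor gene THRB (0.986) and MAMSTR (0.983), a muscle transcription cofactor gene, each highest on 5 mM replicate 1.

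The arrays lay on 3 slides, with replicate 1 of both groups on slide 1, 5 mM replicate 2 with 0 mM replicates 2 and 3 on slide 2, and 5 mM replicates 3 and 4 with 0 mM replicate 4 on slide 3. With slide as a block the differences were 0.26 for S100A8, 0.43 for S100A9, 0.13 for S100A12 and -0.28 for S100B, against -0.15 for S100A4 and between 0.043 and 0.17 for S100A6, S100A11 and HMGB1. Within slides 1, 2 and 3, S100A8 differed by 1.77, -1.34 and 0.73, S100A9 by 3.15, -1.575 and 0.40, and S100A12 by 1.24, -1.01 and 0.45. The slide 1 value of S100A9 is taken against the array where it was not well above background, so its size is not exact. The lowest 0 mM cow of all 3 genes, replicate 1, was on slide 1, and the highest, replicate 2 or 3, on slide 2. S100B differed by -2.57, 1.00 and 0.16 in the same order, S100A4 by 0.18, -0.58 and 0.028, S100A6 by 0.54, -0.17 and -0.12, S100A11 by 0.43, -0.13 and 0.27, and HMGB1 by 0.42, 0.083 and 0.043. Of the members, each by its main probe, HMGB1 alone had one sign on all 3 slides. A slide holds a single array of at least 1 group, and the lone array is assumed to vary like the others.

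Of 12 other S100 genes 10 were tested, 5 with a difference above 0 and 5 below, none at an unadjusted p under 0.05 (background 1.93%). The lowest p were those of S100A3, S100A1 and S100A7. S100A1, an S100 protein known from heart and skeletal muscle, was at -1.97, -4.03, -1.36 and -3.41 with 5 mM and at -2.997, -3.74, -3.77 and -4.41 with 0 mM. Its 3 highest arrays were those with high smooth muscle markers, and the difference of 1.04 ± 0.60 (SE, limma adjusted p = 0.913) stands beside them and was 0.59 without 5 mM replicate 3. S100A3 differed by -0.79 ± 0.45, and S100A7, psoriasin, a skin antimicrobial protein, by 0.54 ± 0.37 (SE) with 5 arrays well above background.

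S100G, the vitamin D dependent calbindin of the uterus and gut, was at -0.78 on 5 mM replicate 1, while the 7 other arrays spanned 4.02 to 5.06. S100A2 was at 1.12 on that array and spanned 3.67 to 5.99 elsewhere. Both are named after their values were seen, since they share the low value of S100B on the array with low epithelium markers. Neither passed the limma test (unadjusted p = 0.316 and 0.321), and without that array S100G differed by 0.071 and S100A2 by -0.12. Of the other HMGB genes, HMGB2 differed by -0.00082 ± 0.16 and HMGB3 by -0.30 ± 0.52 (SE), with HMGB3 at -4.56 on 5 mM replicate 1 while the rest spanned -2.92 to -1.93.

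The receptors were read as well. AGER, the gene of RAGE itself, was at -0.63, -1.96, -1.74 and -1.37 in cows given 5 mM and at -1.11, -1.34, -1.47 and -1.37 in cows given 0 mM. The 5 mM values surround those of the 0 mM group, and the difference was -0.10 ± 0.28 (SE, limma adjusted p = 0.951). The Toll-like receptor genes TLR2 and TLR4, whose products also take part in HMGB1 sensing, differed by 0.11 ± 0.19 and 0.015 ± 0.32 (SE). Of 18 genes of RAGE and other pattern receptors 17 were tested, 7 with differences above 0 and 10 below (median -0.10, against 0.011 over all genes), and 1 had an unadjusted p under 0.05.

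That gene was HAVCR2, which encodes TIM-3, a checkpoint receptor of T cells and myeloid cells that binds HMGB1. HAVCR2 was at -2.10, -2.26, -2.98 and -2.24 in cows given 5 mM and at -1.78, -1.76, -1.52 and -1.26 in cows given 0 mM. No 5 mM value reached the lowest 0 mM value, and 1.65% of genes had groups apart in either direction. The difference was -0.81 ± 0.23 (SE, limma unadjusted p = 0.00751, adjusted p = 0.913), which fails the correction. Within slides 1, 2 and 3 it was -0.32, -0.62 and -1.34. Markers of macrophages and dendritic cells, which express it, had differences below 0 in 13 of 13 tested cases, with a median of -0.54, and markers of T and NK cells in 10 of 13, none at an adjusted p under 0.05. Their part in this difference was not tested. THBD, thrombomodulin, which binds HMGB1 through a lectin domain, differed by 1.25 ± 0.61, and SCARB1, a lipoprotein receptor gene, by -0.61 ± 0.36 (SE), the groups overlapping in both. Without 5 mM replicate 1 THBD differed by 0.67.

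Among 20 genes of RAGE signalling 19 were tested, 9 above 0 and 10 below (median -0.0018), and none had an unadjusted p under 0.05. The lowest p belonged to NFKBIA, the NF-kB inhibitor gene (-0.57 ± 0.45), the kinase gene MAPK14 (0.48 ± 0.38) and IRAK4 (0.16 ± 0.13, SE). Without 5 mM replicate 1 NFKBIA differed by -0.18 and MAPK14 by 0.15. Of 16 genes of RAGE targets and shedding 15 were tested, 3 above 0 and 12 below (median -0.38). PTGS2, the inducible prostaglandin synthase gene, differed by -0.75 ± 0.32 (SE, unadjusted p = 0.0494, limma adjusted p = 0.913) and was the 1 gene of that list at an unadjusted p under 0.05. PTGS2 lay at -3.24, -2.64, -3.44 and -2.57 with 5 mM and at -2.75, -1.55, -1.98 and -2.60 with 0 mM, so the groups overlapped, and its unadjusted p exceeded 0.05 under 14 of 22 alternatives. TNF differed by -0.74 ± 0.41 and F3, tissue factor, by -0.75 ± 0.44 (SE), but F3 by -0.30 without 5 mM replicate 1 and TNF by -0.34 without 0 mM replicate 2. Of 10 binding partners of S100 proteins 9 were tested, 7 above 0 and 2 below (median 0.14), led by SUGT1 (0.14 ± 0.12), CACYBP (0.15 ± 0.14) and the annexin gene ANXA6 (0.30 ± 0.34, SE), none at an unadjusted p under 0.05.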

How the data were processed

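Total RNA was labelled with Cy3 and hybridised to Agilent bovine arrays, 1 per cow, per the labels' protocols. The deposited signals are linear intensity values that Feature Extraction corrected for background and for spatial and multiplicative trends on each array, per the file headers. Its version is 11.5.1.1 there, and 10.5.1.1 in the submitters' notes on processing. The deposited value table holds log2 values that matched, with an r of at least 0.99996 per array, log2 signals after a 75th percentile shift, with each probe's median over the arrays set to 0; it served only as an alternative. Its column medians were between -0.023 and 0.13.

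Control spots and spots with an outlier mark were left out, spots of a probe were averaged on the log2 scale, and the log2 of each array's 75th percentile was subtracted. Probes well above background on at least 4 of 8 arrays (31108, with 461 missing values) were compared with limma 3.58.1 in R 4.3.3 (lmFit, eBayes), adjusted by Benjamini-Hochberg over all of them with a threshold of 0.05. The fit was tested on simulated data. Symbols came from the files, updated through a RefSeq table of ARS-UCD2.0 for 22042 probes by accession, 11162 by name and 383 by synonym; 530 kept the file's name and 9536 have none here. Named genes are the members, AGER, TLR2, TLR4, the 3 lowest-p genes of each list and the 3 most like each member. S100G, S100A2 and the cell type markers CXCR1, CXCR2, CD177, CATHL1, CATHL4 and SOX10 fall outside this rule and were singled out after their values were seen. The members and lists were chosen with earlier results of these data known. Alternatives were other normalizations, background correction, filters, variance models, array weights, probe averaging, slide and replicate blocks, slides apart and leaving out each cow. The labels' replicate numbers name different cows, and each number is used only as a name.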

Additional observations from a re-analysis of the deposited data

Results flagged for a closer look

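In 13 of 138 groups of 4 cows examined (9.42%), over members, other genes with reported differences or likeness and marker means, 1 cow lay far from the other 3, by a gap that took more of the group's range than Dixon's 95% critical value for 4 samples; chance gives about 1 in 20. No member gene was among them. The epithelium mean of the 5 mM group had a gap of 0.946 of its range (-3.16 on replicate 1, then 0.33, 0.35 and 0.53), and S100B was lowest on that array. S100G in the 5 mM group had a gap of 0.918 on the same array (-0.78, then 4.44 to 4.91). The neutrophil mean of the 5 mM group had a gap of 0.923 (-0.28 on replicate 3, then -0.067 to -0.049). In the 0 mM group the gap was 0.898 for CACYBP (3.67 on replicate 4, then 3.91 to 3.93) and 0.876 for TNF (-2.56 on replicate 2, against -4.30 to -4.08), 0.839 for the fibroblast and stroma mean (-0.31 on replicate 2, then -0.040 to 0.011) and 0.8295 for the blood mean (-1.04 on replicate 3, then -0.22 to -0.056).

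The other 6 groups were of genes named for their likeness to a member. SEPTIN2 and BCHE, named beside S100A11, had gaps of 0.846 and 0.840 in the 5 mM group, both with replicate 1 highest, and SEPTIN2 had one of 0.914 in the 0 mM group, with replicate 3 highest. JMY, named beside S100A6, had a gap of 0.847 in the 5 mM group, with replicate 4 highest. RBM48 and ELMO1, named beside S100A4, had gaps of 0.939 and 0.966 in the 0 mM group, both with replicate 1 lowest.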

How the results depend on the processing

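By limma, 0 probes had an adjusted p under 0.05 under all 21 alternatives, with 376 to 1528 at an unadjusted p under 0.05 against 595. The count of members at an unadjusted p under 0.05 was 0 in 20 of 21 and 1 within slide 2, S100A9. HMGB1, by its main probe or its probe mean, was above 0 under all 22 alternatives (0.018 to 0.245 on leaving out a cow). The lowest value was 0.013, and 2 of the 5 tested HMGB1 probes were below 0 in the main fit. Members changed sign within slide 1 (S100A4 0.18, S100A12 1.24), slide 2 (S100A6 -0.17, S100A8 -1.34, S100A9 -1.575, S100A11 -0.13, S100B 1.00) and slide 3 (S100A4 0.028, S100A6 -0.12, S100A12 0.45, S100B 0.16), and with array weights (S100A9 -0.21, S100B 0.16). S100A12 was 0.017 with quantile normalization, 0.046 with the median shift, 0.13 with the slide block and 0.096 as a mean over probes. Leaving out each cow gave -0.40 to 0.11 for S100A4, -0.088 to 0.13 for S100A6, -0.42 to 0.62 for S100A8, -0.61 to 0.64 for S100A9, 0.0050 to 0.235 for S100A11, -0.39 to 0.44 for S100A12 and -0.83 to 0.16 for S100B. Of other genes, those with changed sign were, with array weights, ANXA6 -0.0084, HMGB3 0.10 and TLR2 -0.015; as means over probes, TLR2 -0.21, TLR4 -0.052 and IRAK4 -0.011; with normexp, TLR4 -0.064. HMGB2 was 0.055 with the median shift, 0.052 with the slide block, 0.22 within slide 1 and 0.28 within slide 2. Within slides the others were AGER 0.48 and TLR4 -0.79 (slide 1), ANXA6 -0.21, CACYBP -0.017, HMGB3 0.81, S100A1 -0.27 and S100G 0.45 (slide 2), and S100A7 -0.57, S100G 0.15 and TLR2 -0.18 (slide 3). Leaving out each cow gave -0.37 to 0.077 for AGER, -0.035 to 0.48 for ANXA6, -0.088 to 0.072 for HMGB2, -0.62 to 0.25 for HMGB3, -1.82 to 0.071 for S100G, -0.041 to 0.20 for TLR2 and -0.19 to 0.27 for TLR4, and, with the sign kept, 0.67 to 1.62 for THBD, -0.82 to -0.18 for NFKBIA, 0.15 to 0.69 for MAPK14, -1.03 to -0.30 for F3, -0.92 to -0.34 for TNF, 0.59 to 1.48 for S100A1, -1.00 to -0.39 for S100A3, 0.33 to 0.79 for S100A7, -1.74 to -0.12 for S100A2, -0.80 to -0.35 for SCARB1 and 0.075 to 0.19 for CACYBP. The correlation of S100A8 and S100A9 was 0.803 with normexp; leaving out each cow gave 0.760 to 0.930 for it, 0.961 to 0.987 for S100A8 and S100A12, and 0.739 to 0.942 for S100A9 and S100A12. The cause of these changes was not tested. With the replicate block 0 probes passed and 1221 had an unadjusted p under 0.05; the deviations of same-numbered cows had correlations of 0.403, 0.355, -0.302 and 0.306 for numbers 1 to 4. In 3 of the 4 the 5 mM cow correlated best with the 0 mM cow of its own number, and number 3 did not. Numbers 1, 2 and 4 also shared a slide between the groups, while number 3 did not. Same number and same slide therefore cannot be told apart here, and the numbers were not taken as pairs. The best match of 5 mM replicate 3 was 0 mM replicate 1 (r = 0.325), on another slide, and both had high smooth muscle markers. The part of muscle content in these correlations was not tested. Dim signal limits S100A9, with 7 of 8 arrays well above background.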
